A study of Mus musculus with 6 samples.

Results

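The genes described here encode the subunits of RNA polymerases I, II and III. They were taken as the protein-coding genes of the count table whose symbol in the GENCODE mouse annotation is Polr1, Polr2 or Polr3 followed by letters alone, and this gave 28 of the 54838 genes in the table, 21998 of which are protein coding. Of the 28, 27 are described here. By textbook composition of the enzymes, 3 of the 27 belong to polymerase I alone, 2 to polymerases I and III, 5 to all 3 enzymes, 8 to polymerase II alone and 9 to polymerase III alone. The 8 include Polr2m, which is an associated protein and was placed there by its symbol. The subunits that GENCODE lists under other symbols (Cd3eap, Twistnb, Znrd1 and Crcp) are not members and are given separately below.

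RNA was sequenced from leukemia cells of mice that received Vehicle (n = 3) or AG636 (n = 3), an inhibitor of dihydroorotate dehydrogenase, the mitochondrial enzyme that makes orotate on the way to the pyrimidine nucleotides. Both groups carried the same leukemia, I1DN, on a C57BL/6 background with the genotype IDH1R132H, DNMT3AR882H and NrasG12D. It had been made by transducing fetal liver progenitors and grown on in sublethally irradiated Ptprca recipients, so the 6 mice are hosts of 1 leukemia and p-values measure the spread between hosts. AG636 was given at 100 mg/kg by oral gavage, b.i.d. The study's texts differ on how many days of dosing came before collection, and no duration is printed here. Cells positive for cKit and low or negative for CD11b were sorted from bone marrow and spleen, and the leukemia carried a fluorescent reporter. Whether the sort also gated on the reporter is not given in the sources used here.

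RNA polymerase I transcribes the precursor of the large ribosomal RNAs in the nucleolus. Polymerase II makes messenger RNA, and polymerase III makes the transfer RNAs, the shortest ribosomal RNA and other short transcripts. Each enzyme has its own 2 largest subunits, which form the active site, around a core of shared subunits, and polymerases I and III carry built-in subcomplexes that resemble general initiation factors of polymerase II. Pyrimidine nucleotides are substrates of all 3.

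The libraries were made from transcript 3′ ends, so a count does not grow with transcript length. They held 4634963 to 7906589 counts each, and levels are given as CPM, the counts of a gene scaled to a fixed library size. Kit was present in all 6 libraries at 31.8 to 46.3 CPM and did not pass the test (log2 fold change 0.15, adjusted p = 0.550). Itgam, which encodes CD11b, was at 12.1 to 27.0 CPM in Vehicle and 31.3 to 60.1 in AG636 (log2 fold change 1.21, adjusted p = 0.0219), and Ptprc, the leukocyte antigen CD45, also rose (log2 fold change 0.65, adjusted p = 0.0142). Of 8 neutrophil marker genes, 6 rose, with the lowest adjusted p for Ngp (log2 fold change 1.67) and Ltf (1.16), and their summed level was 1019 to 2345 CPM in Vehicle and 2849 to 5842 in AG636. Of 7 monocyte and macrophage markers tested, 2 rose, Cd68 (log2 fold change 1.57) and C1qb (1.90), with sums of 67.4 to 91.3 and 147 to 175 CPM. Of 7 erythroid markers, 1 fell, Klf1 (log2 fold change -1.10), with sums of 1670 to 4725 and 1957 to 3255 CPM, the highest in Vehicle 1. B cell markers summed to at most 19.8 CPM in any library, with Ms4a1 and Pax5 at 3 counts or fewer. T and NK cell markers summed to 192 to 494 CPM, nearly all from Nkg7, with Cd3e and Cd3g at 3 counts or fewer. The part of these marker shifts in the subunit results was not tested, and in bulk RNA fewer cells of a type and less RNA per cell cannot be told apart.

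All 27 subunit genes had enough counts to be tested, with 65 to 2097 counts per gene and library. Of these 27, 25 had a lower mean level in AG636 and 2 a higher one, Polr2a and Polr3gl. With edgeR's quasi-likelihood test and a Benjamini-Hochberg adjusted p under 0.05 over all 11092 genes tested, 12 fell, 0 rose and 15 did not pass. At an unadjusted p under 0.05, and with DESeq2 or limma-voom, 0 of the 27 rose either. Over all genes tested, 11.0% fell and 10.3% rose. In 16 of the 27 the 3 AG636 values all lay below the 3 Vehicle values, against 20.6% of all genes tested. The median log2 fold change was -0.30 over the 27 genes and 0.03 over all genes.

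The number of calls depended on single libraries. It was 6 without Vehicle 1, 7 without AG636 1 and 4 without AG636 3. Vehicle 1 held the highest Vehicle value for 20 of the 27 genes, and AG636 3 the lowest AG636 value for 19. Vehicle 1 also had the highest erythroid and the lowest neutrophil marker sum of all 6 libraries. The 4 genes that passed under each of the 13 alternative fits at the same threshold were Polr1b, Polr1e, Polr2f and Polr3e. With scaling by library size alone the split of all calls moved from 1222 lower and 1146 higher to 913 lower and 1483 higher, and 8 of the 12 subunit calls were kept. The 4 lost there were Polr2g, Polr2h, Polr2i and Polr2j, of which Polr2h is common to the 3 enzymes and the others belong to polymerase II alone.

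**Figure D1:**
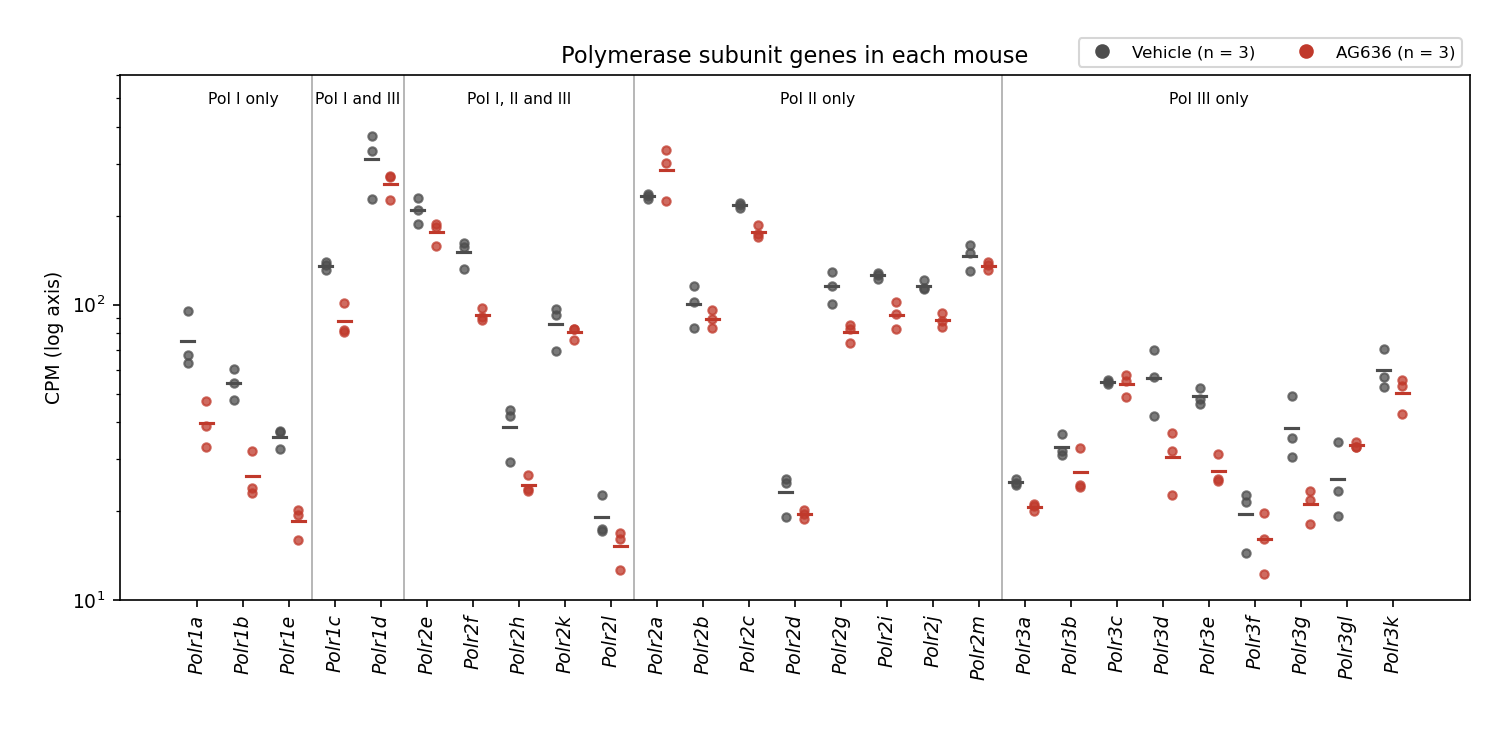
CPM of the 27 subunit genes (log axis) in each Vehicle mouse (grey) and AG636 mouse (red), with a bar at each group mean and the genes ordered by the polymerase they belong to. The Polr1a, Polr1b and Polr1e points separate by group, while the Polr2a points of AG636 spread from 225 to 333 CPM around a tight Vehicle group.

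The 3 genes of polymerase I alone all fell, to 48.7% to 52.4% of their Vehicle means. Polr1a encodes the largest, catalytic subunit and lies on chromosome 6 from 71909053 to 71984935 (mm10). It was at 95.4, 67.8 and 63.5 CPM in Vehicle 1, 2 and 3 and at 38.9, 47.2 and 32.8 CPM in AG636 1, 2 and 3. The groups did not overlap, and the mean fell to 52.4% of Vehicle (log2 fold change -0.93 ± 0.19 SE, adjusted p = 0.0120). Polr1b encodes the second largest subunit, on chromosome 2 from 129100995 to 129126594. Its values were 60.4, 47.6 and 54.3 CPM in Vehicle and 24.0, 32.0 and 23.0 CPM in AG636. This was the lowest fold change among the subunit genes (log2 fold change -1.04 ± 0.18 SE, adjusted p = 0.00585), and every AG636 value was well under the lowest Vehicle value. Polr1e encodes 1 partner of the polymerase I heterodimer that resembles TFIIF and TFIIE. It was at 37.4, 37.0 and 32.4 CPM in Vehicle and at 15.9, 20.2 and 19.4 CPM in AG636 (log2 fold change -0.94 ± 0.17 SE, adjusted p = 0.00685). Within each group its values lay close together and the groups were far apart. Without AG636 3, Polr1a no longer passed.

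Because these 3 genes moved together, the 100 bases just before each RefSeq start are shown, 5′ to 3′ on the gene's strand, in build GRCm38.p6. The Polr1a stretch is chr6:71908953-71909052 (plus strand), that of Polr1b chr2:129100896-129100995 (plus strand) and that of Polr1e chr4:45018509-45018608 (plus strand). Capitals mark a CCAAT box (CCAAT) or a GC box (GGGCGG).
Polr1a: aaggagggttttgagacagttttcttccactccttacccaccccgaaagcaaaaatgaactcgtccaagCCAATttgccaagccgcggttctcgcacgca
Polr1b: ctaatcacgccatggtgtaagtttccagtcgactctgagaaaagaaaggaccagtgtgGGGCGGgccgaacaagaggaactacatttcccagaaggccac
Polr1e: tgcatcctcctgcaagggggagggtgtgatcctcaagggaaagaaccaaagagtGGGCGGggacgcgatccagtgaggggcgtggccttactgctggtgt
No searched motif was common to the 3 stretches. Polr1a held a CCAAT box, and Polr1b and Polr1e each held a GC box.

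The other subunits of polymerase I that carry different symbols split. Cd3eap encodes the heterodimer partner of Polr1e, and it was at 86.5, 68.2 and 60.6 CPM in Vehicle and 45.5, 37.1 and 28.1 CPM in AG636. The groups did not overlap and the fold change was close to that of Polr1e (log2 fold change -0.96, adjusted p = 0.0119). Its exons overlap those of Ercc1, which runs the other way and had 664 counts in total against 1839 for Cd3eap, and Ercc1 did not pass the test (log2 fold change 0.06, adjusted p = 0.847). Twistnb, a stalk subunit, had a log2 fold change of -0.21 (adjusted p = 0.296), and Znrd1, the zinc ribbon subunit, one of 0.14 (adjusted p = 0.497). With these 3 genes, 4 of the 6 subunits found in polymerase I alone fell, with a median log2 fold change of -0.94.

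Polr1c and Polr1d encode the assembly pair that polymerases I and III share, and only Polr1c passed the test. It was at 140.0, 136.2 and 130.8 CPM in Vehicle and 82.0, 101.0 and 80.6 CPM in AG636, with no overlap (log2 fold change -0.63 ± 0.13 SE, adjusted p = 0.0114). Without AG636 3 it no longer passed. Polr1d was at 373.9, 228.6 and 330.6 CPM in Vehicle and 271.9, 269.9 and 226.5 CPM in AG636, and the groups overlapped because Vehicle 2 was low (log2 fold change -0.28 ± 0.17 SE, adjusted p = 0.272). The difference between the partners was not tested.

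Among the 5 small subunits common to the 3 enzymes, 2 fell. Polr2f, a common core subunit, was at 162.4, 157.4 and 132.5 CPM in Vehicle and 90.9, 88.7 and 97.8 CPM in AG636. The fall was clear of the spread in both groups (log2 fold change -0.71 ± 0.13 SE, adjusted p = 0.00660). Polr2h was at 43.9, 29.4 and 42.0 CPM in Vehicle and 23.8, 26.6 and 23.4 CPM in AG636 (log2 fold change -0.64 ± 0.19 SE, adjusted p = 0.0390). Here Vehicle 2 came close to the AG636 range, and the call was lost under 7 of the 13 alternative fits. Polr2e (log2 fold change -0.24, adjusted p = 0.188), Polr2l (-0.32, adjusted p = 0.287) and Polr2k (-0.09, adjusted p = 0.680) did not pass. The median of the 5 was -0.32.

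Of the 8 genes of polymerase II alone, 3 fell by smaller amounts, and the median log2 fold change was -0.27. Polr2g, a subunit of the stalk, was at 115.9, 100.6 and 129.6 CPM in Vehicle and 83.0, 74.0 and 85.5 CPM in AG636 (log2 fold change -0.51 ± 0.14 SE, adjusted p = 0.0263). Polr2i, a zinc ribbon subunit, was at 128.2, 126.6 and 122.2 CPM in Vehicle and 92.8, 101.9 and 82.9 CPM in AG636 (log2 fold change -0.44 ± 0.12 SE, adjusted p = 0.0302). Polr2j, of the polymerase II assembly pair, was at 113.8, 120.9 and 113.3 CPM in Vehicle and 93.4, 84.3 and 88.3 CPM in AG636 (log2 fold change -0.39 ± 0.11 SE, adjusted p = 0.0386). In each of these 3 genes all AG636 values lay below all Vehicle values, but all 3 calls were lost with library size alone, without Vehicle 1, without AG636 1 and without AG636 3.

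Exons of Polr2i and Polr2j overlap genes on the opposite strand, Tbcb and Lrwd1. Tbcb had 2641 counts beside 3642 for Polr2i (log2 fold change of Tbcb -0.21, adjusted p = 0.274), and Lrwd1 had 2450 beside 3421 for Polr2j (log2 fold change of Lrwd1 -0.43, adjusted p = 0.0688). Whether the counting used strand is not given in the sources used here, so how reads in the overlaps of these pairs were assigned is not known.

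Polr2a encodes the largest subunit of polymerase II, whose repeated C-terminal tail is phosphorylated through the transcription cycle. It did not pass the test, and its mean was higher in AG636. It was at 238.0, 233.1 and 227.3 CPM in Vehicle and 333.0, 225.0 and 302.0 CPM in AG636. AG636 1 and 3 were above every Vehicle mouse and AG636 2 was just below (log2 fold change 0.30 ± 0.15 SE, adjusted p = 0.164). Without AG636 2 it passed as higher, with a log2 fold change of 0.45. Polr2b, the second largest subunit, was at 102.2, 83.6 and 115.8 CPM in Vehicle and 89.6, 95.9 and 83.4 CPM in AG636, and the groups overlapped (log2 fold change -0.16, adjusted p = 0.447). Polr2c, the assembly partner of Polr2j, missed the threshold with groups that did not overlap, at 212.6 to 220.9 CPM in Vehicle and 170.1 to 185.8 CPM in AG636 (log2 fold change -0.30, adjusted p = 0.0711). Polr2d, the other stalk subunit, had a log2 fold change of -0.24 (adjusted p = 0.365), and Polr2m, an associated protein that regulates the enzyme, one of -0.11 (adjusted p = 0.540).

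The 100 bases before the Polr2a start, chr11:69758634-69758733 on the minus strand (GRCm38.p6, RefSeq), are shown because this gene had the opposite sign from its polymerase I counterpart. Capitals mark 3 GC boxes (GGGCGG) and a TATA box (TATAAA).
Polr2a: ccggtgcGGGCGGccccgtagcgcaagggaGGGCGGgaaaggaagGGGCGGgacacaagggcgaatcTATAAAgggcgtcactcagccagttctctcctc
None of the 3 polymerase I stretches above held a TATA box by these letters. In the longer windows described below, Polr2c, with a log2 fold change of -0.30, also held one. Polr3gl, the other gene with a higher mean, did not. Whether the motif bears on the sign was not tested.

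Among the 9 genes of polymerase III alone, 3 fell and 6 did not pass, and the median log2 fold change was -0.28. The 3 that fell, Polr3d, Polr3e and Polr3g, did so by nearly as much as the polymerase I genes, with log2 fold changes of -0.83 to -0.89. Crcp, a stalk subunit of polymerase III that is not a member, had a log2 fold change of -0.52 and did not pass (adjusted p = 0.130).

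Polr3d and Polr3e encode the heterodimer of polymerase III that resembles TFIIF, and both fell. Polr3e was at 52.4, 48.1 and 46.2 CPM in Vehicle and 25.7, 31.3 and 25.3 CPM in AG636, with each group narrow (log2 fold change -0.83 ± 0.16 SE, adjusted p = 0.00761). Polr3d was at 70.4, 57.0 and 42.0 CPM in Vehicle and 32.1, 36.7 and 22.6 CPM in AG636 (log2 fold change -0.89 ± 0.23 SE, adjusted p = 0.0232). Both groups of Polr3d spread widely, without overlap, and its call was lost under 4 of the 13 alternative fits, all of which left out 1 library. The corresponding heterodimer of polymerase I, Polr1e with Cd3eap, fell as a pair as well. Of the 7 members with a place in such TFIIF- or TFIIE-like subcomplexes, 4 fell, beside 12 of all 27. Their median log2 fold change was -0.83, with a range from -0.94 to 0.37. Of the assembly pairs 2 of 4 members fell, of the stalks 1 of 2 and of the zinc ribbons 1 of 2. Of the common subunits 2 of 5 fell, and 1 of 3 among the largest and among the second largest. Differences between these roles were not tested.

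The 2 largest subunits of polymerase III did not pass. Polr3a, the largest, was at 24.6, 25.0 and 25.7 CPM in Vehicle and 20.8, 20.0 and 21.1 CPM in AG636. The groups were tight and did not overlap, but the change was small and rested on 97 to 191 counts per library (log2 fold change -0.28 ± 0.16 SE, adjusted p = 0.228). Polr3b, the second largest, was at 36.4, 31.9 and 30.9 CPM in Vehicle and 24.2, 24.5 and 32.7 CPM in AG636. AG636 3 lay within the Vehicle range (log2 fold change -0.28 ± 0.18 SE, adjusted p = 0.275). Polr3k, the zinc ribbon subunit, had a log2 fold change of -0.25 (adjusted p = 0.290).

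The remaining 4 genes make the initiation trimer of polymerase III, which contains Polr3c, Polr3f and either Polr3g or Polr3gl. Polr3c was at 53.7 to 55.8 CPM in Vehicle and 48.7 to 57.8 CPM in AG636 (log2 fold change -0.02, adjusted p = 0.915), and its sign turned with library size alone and without AG636 3. Polr3f was at 14.4 to 22.6 and 12.3 to 19.8 CPM (log2 fold change -0.28, adjusted p = 0.445). Polr3g, the form known from embryonic stem cells and tumour cells, was at 49.0, 35.3 and 30.5 CPM in Vehicle and 23.4, 21.9 and 18.1 CPM in AG636. It fell (log2 fold change -0.86 ± 0.21 SE, adjusted p = 0.0198), but did not pass without Vehicle 1 or without AG636 3. Polr3gl, the form known from most adult tissues, was at 23.4, 34.4 and 19.2 CPM in Vehicle and 34.4, 33.0 and 32.8 CPM in AG636. The AG636 mice were nearly equal, and Vehicle 2 matched the highest of them (log2 fold change 0.37 ± 0.21 SE, adjusted p = 0.240).

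The ratio of Polr3g to Polr3gl within each mouse was 2.10, 1.03 and 1.59 in Vehicle and 0.679, 0.663 and 0.552 in AG636. Polr3g had the more counts in every Vehicle mouse and Polr3gl in every AG636 mouse, although counts of different genes can also differ in how well their 3′ ends are captured. On the log2 scale the ratio differed by -1.26 (exact permutation test, two-sided, p = 0.1, which is the smallest that 3 against 3 allows, adjusted p = 0.117 over 7 pairs). This pair was chosen with earlier results of these data known.

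The bases before both starts are shown for this pair of alternative subunits (GRCm38.p6, RefSeq), chr13:81711014-81711113 for Polr3g and chr3:96594182-96594281 for Polr3gl, both on the minus strand. Capitals mark an ETS motif (CCGGAAG, here on the opposite strand) in Polr3g and CCAAT boxes in Polr3gl, of which the first is on the opposite strand.
Polr3g: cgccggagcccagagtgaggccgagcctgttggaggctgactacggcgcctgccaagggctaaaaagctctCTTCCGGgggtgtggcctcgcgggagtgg
Polr3gl: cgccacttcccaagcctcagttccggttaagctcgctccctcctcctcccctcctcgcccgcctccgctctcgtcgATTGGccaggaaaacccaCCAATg
The marked motifs of the 2 stretches differ, and neither stretch holds the other's.

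**Figure D2:**
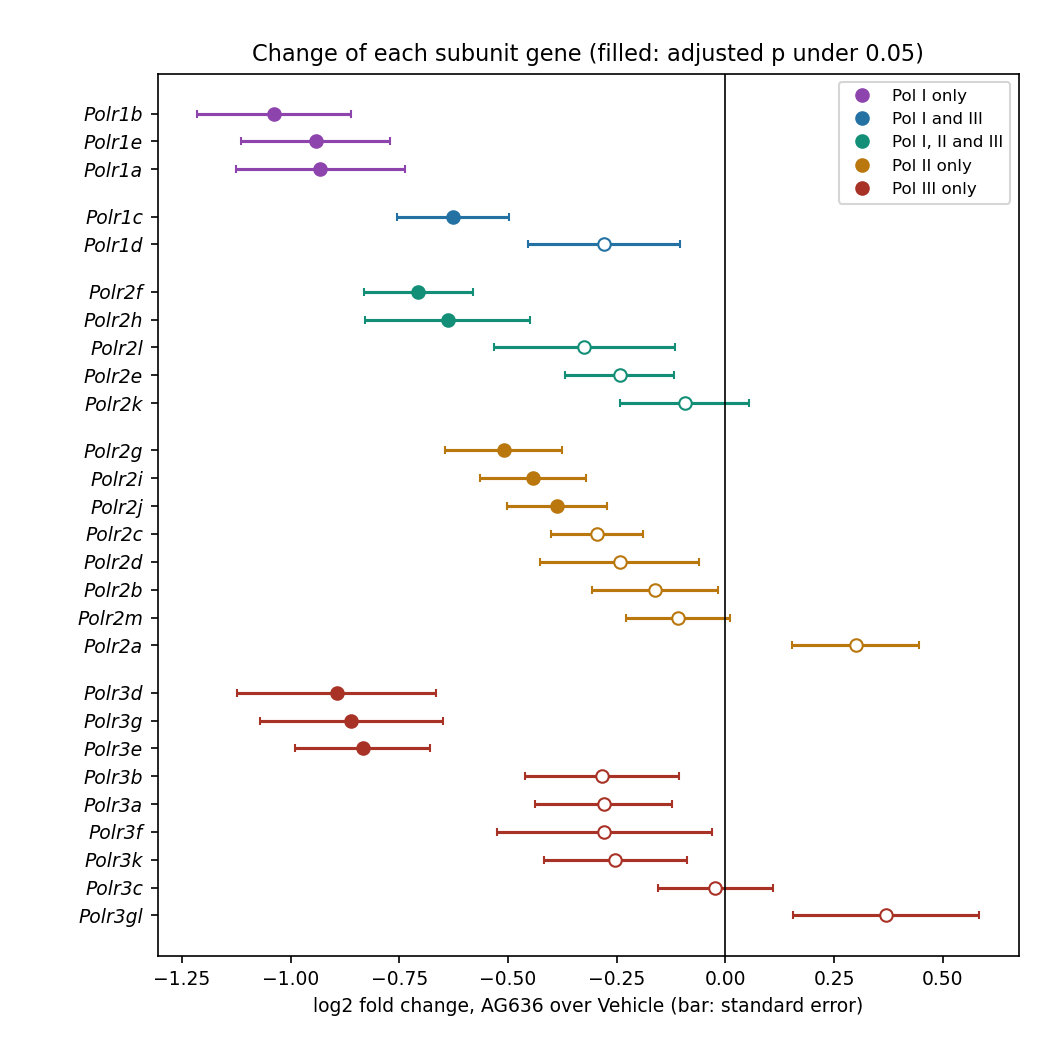
Log2 fold change of AG636 over Vehicle for each subunit gene with its standard error, coloured by the polymerase it belongs to, with filled points for an adjusted p under 0.05. All 3 Polr1 genes of polymerase I alone lie between -0.93 and -1.04, while those of polymerase III alone run from -0.89 to 0.37. Cd3eap, Twistnb and Znrd1 are not shown.

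Set side by side by class, the mean log2 difference from the Vehicle mean over the 3 polymerase I genes was -1.07, -0.73 and -1.08 in AG636 1, 2 and 3. Over the 8 polymerase II genes it was -0.18, -0.26 and -0.26, over the 9 polymerase III genes -0.29, -0.34 and -0.45, and over the 5 common genes -0.36, -0.32 and -0.49. In each AG636 mouse the mean was lowest for these 3 polymerase I genes and smallest in size for the polymerase II genes. This polymerase I class leaves out Cd3eap, Twistnb and Znrd1, with log2 fold changes of -0.96, -0.21 and 0.14. The polymerase II and III means include Polr2a and Polr3gl, which had the opposite sign. By median log2 fold change, polymerases II and III were close (-0.27 and -0.28). In Vehicle these class means lay between -0.20 and 0.20. The classes were chosen with results of these data known, and their difference was not tested. Leaving out the polymerase I class, 9 of 24 members fell (37.5%) and the median log2 fold change was -0.28, so the direction did not rest on those 3 genes alone.

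**Figure D3:**
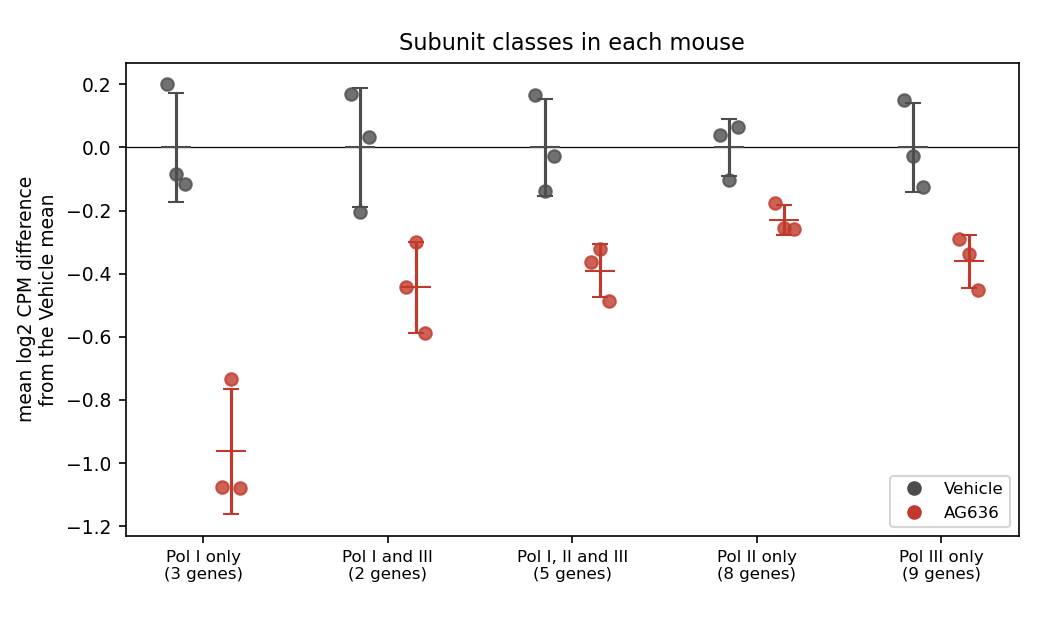
Mean log2 CPM difference from the Vehicle mean over the genes of each class, 1 point per mouse, with the group mean and SD (n = 3). AG636 means were -0.96 for polymerase I alone, -0.44 for polymerases I and III, -0.39 for all 3 enzymes, -0.23 for polymerase II alone and -0.36 for polymerase III alone. The polymerase I class leaves out Cd3eap, Twistnb and Znrd1.

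Counterpart subunits were also compared within each mouse, where library scaling cancels. The ratio of Polr1a to Polr2a, the largest subunits of polymerases I and II, was 0.401, 0.291 and 0.279 in Vehicle and 0.117, 0.210 and 0.109 in AG636. Every AG636 mouse lay below every Vehicle mouse, AG636 2 by the least (difference of log2 ratios -1.20). Polr1a was also lower against Polr3a, with ratios of 2.47 to 3.88 in Vehicle and 1.55 to 2.36 in AG636 (difference of log2 ratios -0.64). Polr2a stood higher against Polr3a, at 8.85 to 9.67 in Vehicle and 11.2 to 16.0 in AG636 (difference of log2 ratios 0.56). The second largest subunits gave lower ratios for polymerase I too, with a log2 difference of -0.89 for Polr1b to Polr2b and -0.75 for Polr1b to Polr3b. Each of these 5 ratios separated the groups, with the smallest p that the exact permutation test allows here (two-sided, p = 0.1, adjusted p = 0.117). The ratio of Polr2b to Polr3b overlapped between the groups (difference of log2 ratios 0.14, exact permutation p = 0.8). These 6 ratios were chosen after the data were seen, and that of Polr3g to Polr3gl with earlier results of these data known. The 6 are not independent. Among the largest subunits, and again among the second largest, any ratio follows from the others. They also use Polr1a and Polr1b again, which fell above. How often other gene pairs separate the groups was not counted.

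**Figure D4:**
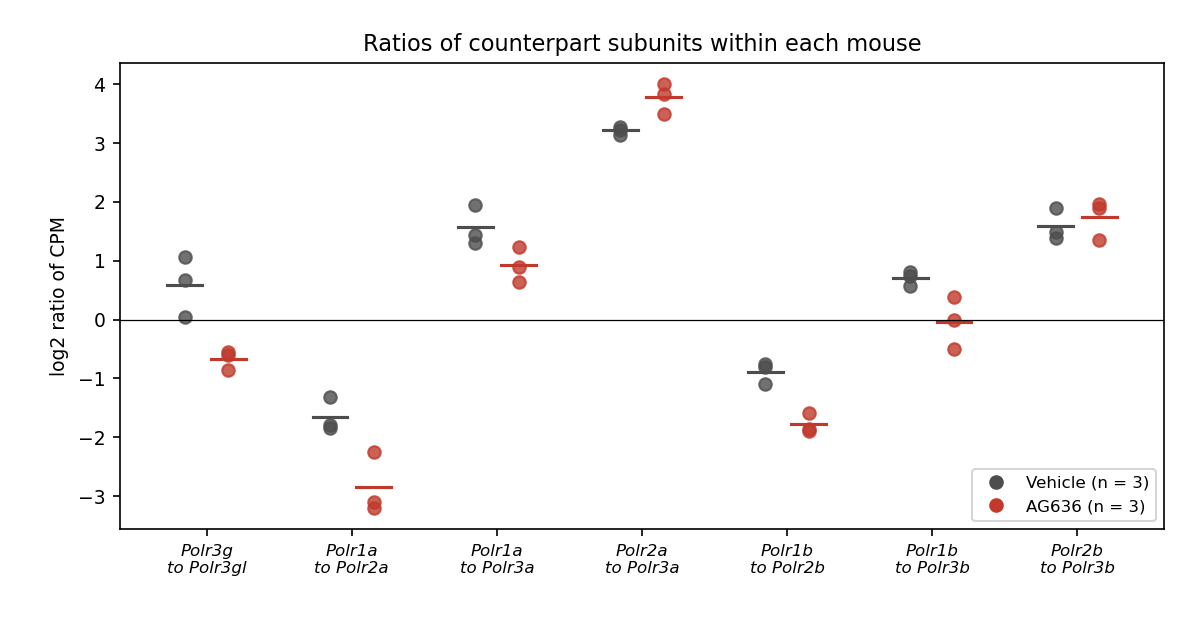
Log2 ratio of the CPM of counterpart subunits within each mouse (Vehicle grey, AG636 red), with a bar at each group mean. The groups separate in 6 of the 7 pairs, and Polr2b to Polr3b is the pair in which they overlap. The pairs share genes and are not independent.

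Among the subunit genes described here, those most like Polr1b in log2 CPM over the 6 libraries were Polr2c (Pearson r = 0.996), Polr3e (0.989) and Polr1c (0.984). Genes outside the members were not compared. Polr2a (r = -0.79) and Polr3gl (r = -0.72) were the most unlike. These values describe 6 points that fall into the groups being compared and share library composition, and no test was made.

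Promoter windows, from 250 bases before to 50 after the RefSeq start, were found for 22 of the 27 genes and gave 24 windows. Each window was searched on both strands for 7 motifs. The GC box (GGGCGG) was in 15 of 24 windows (62.5%) and in 35.7% of the 32851 mouse windows of that length. The ETS motif (CCGGAAG) was in 7 of 24 (29.2% against 8.86%), in Polr1c, Polr1e, Polr2c, Polr2f, Polr2j, Polr3b and Polr3g. The E-box (CACGTG) was in 4 (16.7% against 7.15%), in Polr2h, Polr3c, Polr3e and Polr3gl, and the CCAAT box in 7 (29.2% against 37.4%). A TATA box (TATAAA) was in 2 (8.33% against 13.6%), Polr2a and Polr2c. The YY1 core (AANATGGC) was in 2 (8.33% against 6.05%), Polr2i and Polr3e, and the NRF1 core (CGCATGCG) in 2 (8.33% against 1.87%), Polr2b and Polr2j. Of the 11 windows of genes that fell, 9 held a GC box and 5 an ETS motif, beside 6 and 2 of the 13 other windows. In the same order, the E-box was in 2 and 2, the CCAAT box in 3 and 4 and the NRF1 core in 1 and 1. The YY1 core was in 2 and 0 and the TATA box in 0 and 2. Windows are not genes here, since some genes have more than 1 and are counted again. The mouse windows were not limited to genes tested here. These are letter matches in 1 window per start and were not tested.

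Other parts of the 3 transcription systems were mixed. Of 6 initiation factor genes of polymerase I, 2 fell, namely Taf1d, a subunit of the selectivity factor (log2 fold change -0.88, adjusted p = 0.0126), and Ubtf, which binds ribosomal DNA (-0.53, adjusted p = 0.0315). The median of the 6 was -0.47. Of 17 initiation and related factors of polymerase III, 1 fell, Ssb, which binds the ends of new polymerase III transcripts (log2 fold change -0.45, adjusted p = 0.0290), and 1 rose, Snapc5, a subunit of the complex for snRNA promoters (0.64, adjusted p = 0.0274). Maf1, the repressor of polymerase III, was at 68.7 to 85.0 CPM in Vehicle and 85.4 to 110.7 CPM in AG636 and missed the threshold (log2 fold change 0.41, adjusted p = 0.0700). The median of the 17 was -0.12.

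Of 19 general factors of polymerase II, 3 fell, namely Gtf2h4 (log2 fold change -0.79, adjusted p = 0.00901) and Gtf2h3 (-1.05, adjusted p = 0.0220), both of TFIIH, and Gtf2f1 of TFIIF (-0.56, adjusted p = 0.0252). The median of the 19 was -0.22. Among 16 genes for polymerase assembly and import, 4 fell, with a median of -0.37. They were the ATPases Ruvbl1 (log2 fold change -0.98, adjusted p = 0.00254) and Ruvbl2 (-0.84, adjusted p = 0.00571), and the prefoldin subunits Pfdn6 (-0.68, adjusted p = 0.00522) and Pfdn2 (-0.67, adjusted p = 0.00968), all of which also act outside polymerase assembly. Of 6 mitochondrial transcription genes 1 rose, Mterf1a (log2 fold change 0.83, adjusted p = 0.0402). Tfam, which packages mitochondrial DNA, had a log2 fold change of -0.32 (adjusted p = 0.149), and the mitochondrial polymerase Polrmt had a log2 fold change of -0.23 (adjusted p = 0.344). These lists stand beside the same background of 11.0% lower and 10.3% higher over all genes.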

How the data were processed

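Counts per gene were deposited by the authors for 6 libraries of sorted I1DN cells, 3 Vehicle and 3 AG636, grouped by the submitters' labels. The QuantSeq 3′ libraries were trimmed with cutadapt, mapped to mm10 (GRCm38) with HISAT2 and counted with featureCounts of Subread. The submitters' processing notes give versions 1.9.1, 2.0.4 and 1.5.0-p3 in that order, and the study's methods give other versions of cutadapt and Subread. The annotation release, the use of strand and the treatment of reads that map to several places are not given in the sources used here, and no molecular identifiers are described. The gene length in the deposited table was not used. No other columns held sample values.

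Symbols came from GENCODE M21, which matched 54809 of 54838 identifiers. The main test was the quasi-likelihood test of edgeR 4.0.16 (R 4.3.3), with filterByExpr (minimum count 10, minimum total count 15), TMM scaling and Benjamini-Hochberg adjustment over the 11092 genes tested, with a threshold of 0.05. Standard errors were taken from the fold change and the F statistic. DESeq2 1.42.0 and limma 3.58.1 (voom) were alternatives, as were other scaling, filters, a replicate block and leaving out each library. On simulated counts for this comparison, over 10954 genes, edgeR recovered 40% of genes changed by 0.7 on the log2 scale and 84% of those changed by 1, and called 11 unchanged genes. Only a small set of well-expressed genes was changed there, so these shares are not the power in these data. Depth of 4634963 to 7906589 counts puts 3 counts at 0.379 to 0.647 CPM, and the standard errors of the subunit genes were 0.106 to 0.247. Replicates differed by more than sampling noise (chi-square per degree of freedom 6.22 to 14.6).

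Of the 28 genes the symbol rule found, 1 is not reported here, nor is 1 marker gene, and both stayed in the fit across all genes but in no count of members or markers. In the other lists, the 2 genes with the lowest adjusted p are named. Ruvbl2, Pfdn2, Gtf2f1, Maf1, Polrmt, the genes of the other strand and the markers at 3 counts or fewer were named after their values were seen. The members, classes, lists, ratios and motifs were chosen with earlier results of these data known. Promoter windows came from RefSeq (GRCm38.p6), with none for 5 members, and no protein sequences were used.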

Additional observations from a re-analysis of the deposited data

How the results depend on the processing

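Of 27 subunit genes, 26 kept their direction under all 13 alternatives. The log2 fold change of Polr3c, which passed no test, turned to 0.0653 with library size alone, and ranged from -0.0795 to 0.0454 when 1 library was left out. Genes called lower numbered 1222 and ranged from 452 to 1298 when 1 library was left out, and genes called higher numbered 1146 and ranged from 399 to 1074. Subunit genes called lower numbered 12, with a range of 4 to 10, and those called higher 0, with a range of 0 to 1, the 1 being Polr2a without AG636 2. At an adjusted p under 0.01 the calls were 325 lower and 231 higher over all genes and 4 subunit genes lower. Without a low-count filter 1620 genes were called lower. With 2 libraries in a group fewer residual degrees of freedom remain. The class medians kept their sign throughout.

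Same-numbered libraries are different mice, and their deviations from the group means correlated at -0.06, -0.18 and 0.22. Differently numbered pairs ran from -0.38 to 0.36. Whether libraries of 1 number shared a processing step was not tested. With a replicate block 1046 genes were called lower and 914 higher, and 10 subunit genes lower, without Polr2h and Polr2j. The ratio of Polr3g to Polr3gl kept its direction when 1 library was left out and with 0.5 CPM added.

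The design allows no exact permutation p under 0.1. A gene changed by 0.7 on the log2 scale was recovered in 40% of simulated cases, with fewer genes changed than were called here. Subunits that did not pass are not shown to be unchanged.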
